A study of Mus musculus with 9 samples.

Results

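The proteins of the cytosolic ribosome were followed at the mRNA level in mouse liver. Members were the probe sets that carry exactly 1 gene symbol in the array annotation, where that symbol begins with Rpl or Rps and a digit or is Rplp0, Rplp1 or Rplp2. Kinases named Rps6k were left out. The rule took 215 of the 28815 probe sets, and these carried 64 symbols. Of the symbols, 53 belong to standard ribosomal proteins (33 of the large and 20 of the small subunit, on 203 probe sets), and the other 11, on 12 probe sets, belong to paralogs, pseudogenes and similarly named genes. By subunit, 133 probe sets belonged to the large and 80 to the small one, and 2 to neither.

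The ribosome is built from ribosomal RNA and about equal numbers of copies of each ribosomal protein. The small subunit reads the mRNA, and the large subunit joins amino acids and passes the growing chain out through its tunnel. Most ribosomal protein mRNAs begin with a C and a run of pyrimidines at their very 5′ end, the TOP motif, through which mTORC1 sets their translation according to nutrients. The liver makes much of the protein of the blood plasma, and its ribosome content is known to follow food intake.

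Livers came from 9 female mice aged 15 to 16 months on a C57BL/6J background, 1 mouse per array and 3 per group. Wild-type mice with free access to chow (WTAL) were compared with wild-type mice on a short-term calorie-restricted diet, lowered in steps over weeks (WTCR), and with mice null for Dgat1 and fed ad libitum (Dgat1-/-AL). Dgat1 encodes an enzyme of triglyceride synthesis, and the null allele is present in every tissue. No calorie-restricted Dgat1-/- mice were analysed here, so the WTCR and Dgat1-/-AL groups differ in both genotype and feeding.

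All values are log2 signals, so a difference of 1 is a doubling. Following the study, a probe set was called where the groups differed by more than 1.3-fold with a limma p below 0.05 before adjustment, and limma's p after Benjamini-Hochberg adjustment over the whole array is given as the adjusted p. Errors of differences are SE from limma with n = 3 arrays per group. Dgat1 itself read 6.14, 5.84 and 5.39 in the Dgat1-/-AL arrays and 8.56 to 8.89 in the WTCR arrays. WTAL replicates 1 and 3 read 7.86 and 8.04, while the array labelled WTAL replicate 2 read 5.67, against its label. The main counts against WTAL, and those of the other gene lists where they changed, are therefore also given without that array. Of 7 hepatocyte markers, 5 had a probe set of their own, with mean signals from 10.8 to 14.2, and their summed signal on the log2 scale lay between 15.7 and 15.9 in every group. Of the 5, Hnf4a, a transcription factor of hepatocytes, was higher in WTCR than in WTAL (0.40 ± 0.12, adjusted p = 0.13) and than in Dgat1-/-AL (0.39 ± 0.12, adjusted p = 0.13), and 0 were called in Dgat1-/-AL against WTAL. Of all probe sets, 4.25% were higher in WTCR than in WTAL and 4.66% than in Dgat1-/-AL. With the array labelled WTAL replicate 2 left out, 2 of the 5 were higher in WTCR than in WTAL, where 4.03% of all probe sets were. In whole liver, fewer cells of a type and less RNA per cell cannot be told apart.

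The starts of 8 member genes are shown because the genes called below differ in whether the annotated start carries the TOP pattern. Each sequence runs 5′ to 3′ on the gene's strand, 15 bases before and 15 bases from the RefSeq start in the GRCm38.p6 build. Capitals mark an unbroken run of C and T of at least 5 bases that begins with C at the first transcribed base.
Rpl28: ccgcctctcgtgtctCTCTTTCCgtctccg
Rpl38: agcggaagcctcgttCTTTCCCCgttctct
Rps15a: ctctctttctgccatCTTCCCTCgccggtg
Rps6: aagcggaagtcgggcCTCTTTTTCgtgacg
Rplp2: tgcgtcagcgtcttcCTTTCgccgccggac
Rpl6: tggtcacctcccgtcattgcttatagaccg
Rplp0: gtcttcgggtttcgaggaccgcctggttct
Rps12: taccgtcatgcggccaccgccggccttttc

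The windows lie at chr7:4792950-4792979 on the plus strand for Rpl28 and chr11:114668565-114668594 (plus) for Rpl38. That of Rps15a is chr7:118116133-118116162 (minus), that of Rps6 chr4:86857353-86857382 (minus) and that of Rplp2 chr7:141447636-141447665 (plus). That of Rpl6 is chr5:121204486-121204515 (plus), that of Rplp0 chr5:115559452-115559481 (plus) and that of Rps12 chr10:23787195-23787224 (minus). RefSeq promoter entries were found for 50 of the 64 symbols, and for 42 of the 53 standard genes. A run as defined above stood at the annotated start of 9 of these 42 genes (21.4%), against 3.01% of all 27025 genes in the table. The 9 were Rpl14, Rpl28, Rpl38, Rplp2, Rps10, Rps15a, Rps18, Rps21 and Rps6. Rps13, Rps4x, Rpl7l1 and Rps23rg1, also called below but not shown, carried no such run. Rps6 and Rplp2 were called only between WTCR and Dgat1-/-AL. In the 250 bases before the start, on either strand, CCGGAAG, a core bound by ETS factors, stood in 13 of 42 (31.0%) against 7.83% of all genes. The GC box GGGCGG stood in 21 of 42 (50%) against 35.4%, and the TATA box core TATAAA in 2 (4.76%) against 14.3%. AAGATGGC, a core of the YY1 motif, stood in 1 (2.38%) against 1.83%. These are matches of letters at annotated starts, which can lie some bases away from the start used in liver. Entries were not found for Rpl14-ps1, Rpl21, Rpl23a, Rpl29, Rpl30, Rpl36, Rpl7, Rpl8, Rplp1, Rps14, Rps19-ps3, Rps20, Rps29 and Rps4l.

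Ribosomal protein probe sets were among the brightest on the array. Their mean signal over the 9 arrays had a median of 11.1 (3.33 to 13.2), against 5.83 for all probe sets, and 192 of 215 (89.3%) lay among the brightest 2882, which began at 9.01. The brightest were probe sets of Rpl10, a large-subunit protein that joins late in assembly, at up to 13.2. The dimmest were Rpl39l (3.33) and Rpl3l (4.68), tissue-restricted paralogs of the large-subunit proteins Rpl39 and Rpl3, and Rpl12 (5.38), of the base of the stalk. Rpl12 is a standard member with 1 probe set, and whether that probe set reports its mRNA level was not tested. The number of probe sets per symbol was 1 for 26 symbols and more for the other 38, up to 13 for Rps12 and Rpl23a. Ribosomal protein genes have many processed copies in the genome, so probe sets of a symbol may read the parent gene, a copy or both, and 18 of the 215 had the same values as another member on all 9 arrays. The 215 rows are therefore not 215 independent measurements, and gene values below are means over the probe sets of a symbol. For a symbol with several probe sets the difference and its adjusted p come from these means, adjusted over 19935 genes, and for a symbol with 1 they come from the probe set.

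Array by array, the large-subunit level set the WTCR livers above the WTAL livers. Each probe set was set against its WTAL mean, and the median of the 133 large-subunit probe sets was 0.08, -0.06 and 0.01 in WTAL replicates 1 to 3. It was 0.12, 0.32 and 0.36 in WTCR, so that every WTCR array lay above every WTAL array. In Dgat1-/-AL it was -0.30, 0.01 and -0.17, and these overlapped with WTAL.

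The 80 small-subunit probe sets spread more within a group. Their medians were 0.21, -0.15 and -0.01 in WTAL and -0.16, 0.38 and 0.29 in WTCR, and these overlapped. In Dgat1-/-AL they were -0.63, -0.17 and -0.17, all below the WTAL arrays. Replicate 3 (-0.168) was only just below the array labelled WTAL replicate 2 (-0.152), a margin far smaller than the spread within groups. The SD between arrays of a group was 0.124 for the large-subunit and 0.250 for the small-subunit medians. On each array the large-subunit median minus the small-subunit median was -0.13, 0.10 and 0.02 in WTAL, 0.28, -0.07 and 0.07 in WTCR and 0.33, 0.19 and -0.00 in Dgat1-/-AL. These differences overlapped among the 3 groups, and the highest stood in WTCR replicate 1 and Dgat1-/-AL replicate 1. The median over all probe sets was between -0.01 and 0.01 on every array. That of 85 probe sets of mitochondrial ribosomal proteins, which serve a separate ribosome, was -0.03 to 0.02 in WTAL, 0.07 to 0.18 in WTCR and -0.10 to 0.07 in Dgat1-/-AL.

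**Figure D1:**
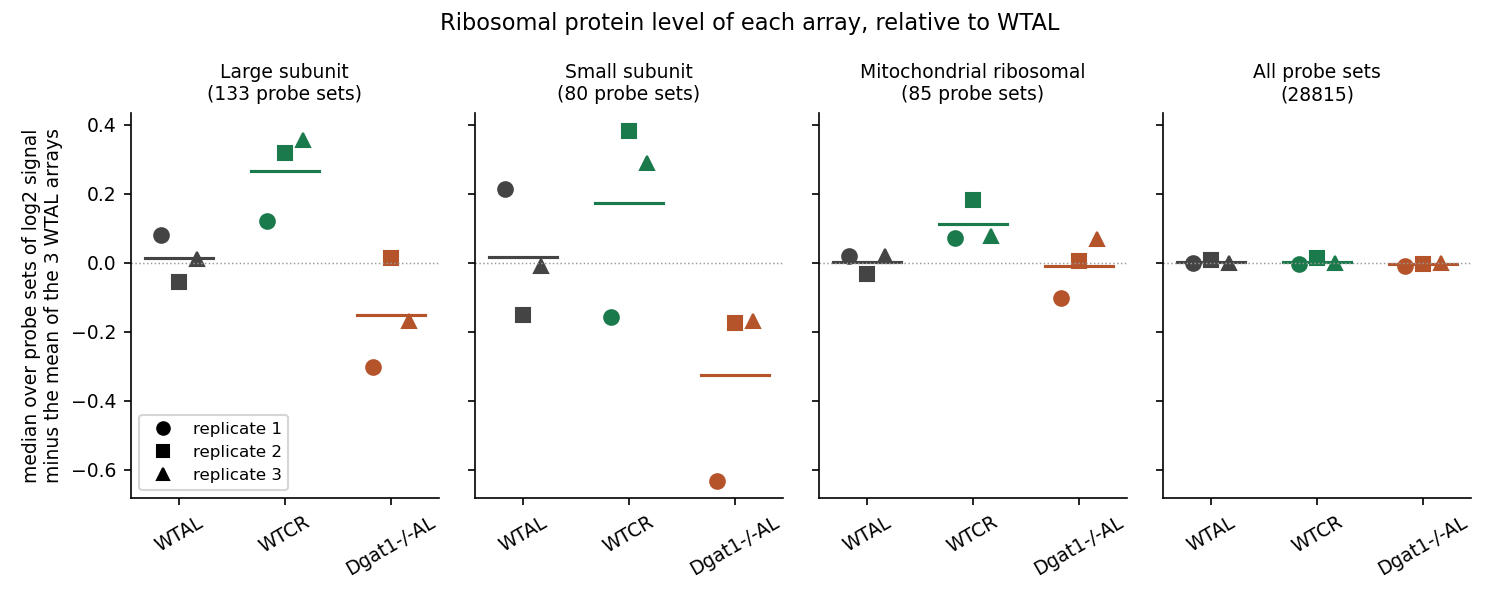
Median over probe sets of the log2 signal minus the mean of the 3 WTAL arrays (y axis) for each array by group (x axis), with 1 symbol per replicate number and the group mean as a line. In the large-subunit panel the 3 WTCR arrays (0.12, 0.32 and 0.36) lie above all WTAL arrays, while in the small-subunit panel WTCR replicate 1 (-0.16) lies at the level of WTAL replicate 2 (-0.15).

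A set of large-subunit mRNAs was higher in calorie-restricted livers, and few of the small subunit passed the rule. In WTCR against WTAL livers, 38 of the 215 probe sets were higher (17.7%, where 4.25% of all probe sets were) and 2 were lower (0.930%, where 3.81% of all were). Of the 38, 37 were among the 133 large-subunit probe sets (27.8%) and 1 was among the 80 of the small subunit (1.25%). The contrast between subunits was not tested. The median difference was 0.25 for the large and 0.16 for the small subunit, against 0.00 for all probe sets. It was above 0 for 203 of 215 members (94.4%), where 50.8% of all probe sets were. In 86 members (40.0%) every WTCR array lay above every WTAL array, 70 of the large and 16 of the small subunit, where 11.2% of all probe sets did so. The number was 90 with the array labelled WTAL replicate 2 left out, where 16.1% of all did so. After adjustment, 9 probe sets kept a limma p under 0.05 and were higher, against 1.62% of all probe sets, and 0 were lower, against 1.41%. They were the 5 of Rpl28, 2 of Rpl24 and 1 each of Rpl8 and Rplp0. At an unadjusted p under 0.05 with no fold limit, 86 were higher, against 8.36% of all probe sets.

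Bright probe sets were called more often as a class. Among the brightest 2882, a comparison chosen after seeing the data, 15% were higher in WTCR, with a median difference of 0.12. Among these, 36 of 119 large-subunit probe sets (30.3%) and 0 of 73 of the small subunit were higher. The number of calls depended on single arrays. It was 58 without WTCR replicate 1, 20 without WTCR replicate 2, 18 without WTCR replicate 3 and 27 (26 large, 1 small) without the array labelled WTAL replicate 2. Of all probe sets 4.27%, 4.28%, 3.87% and 4.03% were higher in these fits, in the order given. The small-subunit median was 0.34 without WTCR replicate 1, 0.28 without WTAL replicate 1, 0.11 without WTCR replicate 3, 0.03 without WTCR replicate 2 and 0.04 without the array labelled WTAL replicate 2, while that of the large subunit stayed between 0.22 and 0.33.

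With probe sets of a symbol averaged, 8 of 33 large-subunit genes and 1 of 20 small-subunit genes rose in WTCR and 0 fell, where 3.94% of all 19935 genes rose and 4.24% fell. With the array labelled WTAL replicate 2 left out, 6 large-subunit genes and 1 small-subunit gene rose, where 3.84% of all genes did. Without WTCR replicate 3 the counts were 4 and 0, where 3.7% of all genes rose, and without WTCR replicate 1 they were 13 and 2, where 3.54% did. The gene difference was above 0 for 32 of the 33 large-subunit genes and for 17 of the 20 small-subunit genes. In 6 large-subunit genes every probe set was called: Rpl28 (5), Rpl38 (4), Rpl13 (9), Rpl36 (9), Rpl6 (3) and Rpl8 (1).

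Rpl28 is a large-subunit protein that bacterial ribosomes lack. Averaged over its 5 probe sets, it read 11.24, 11.15 and 11.23 in WTAL and 11.57, 11.76 and 11.78 in WTCR. The WTCR arrays were all above the WTAL arrays, and Dgat1-/-AL read 11.23, 11.05 and 10.91. The difference between WTCR and WTAL was 0.50 ± 0.10 (a 1.41-fold rise, adjusted p = 0.029). The 5 probe sets gave 0.49 to 0.51. The 4 with the largest differences kept the call with each array left out.

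Rpl38, which in mouse embryos is needed for the translation of some Hox mRNAs, read 10.995, 10.90 and 10.78 in WTAL and 11.13, 11.34 and 11.65 in WTCR. The groups did not overlap, though the lowest WTCR array stood close to the highest WTAL array. The rise was 0.48 ± 0.15 (adjusted p = 0.15). Without WTCR replicate 3 its 2 strongest probe sets fell short of the rule, at 0.37 and 0.35.

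Rpl8, which reaches close to the peptidyl transferase centre of the large subunit, had 1 probe set. It read 10.78, 10.69 and 10.69 in WTAL, 11.02, 11.26 and 11.25 in WTCR and 10.51, 10.30 and 10.50 in Dgat1-/-AL. The 3 groups did not overlap at all. WTCR was higher than WTAL by 0.46 ± 0.09 (adjusted p = 0.033), and the call held with each array left out. Dgat1-/-AL differed from WTAL by -0.28 ± 0.09, under the fold limit (adjusted p = 0.97).

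Rpl6 read 10.17, 10.20 and 10.44 in WTAL and 10.64, 10.76 and 10.78 in WTCR, again with no overlap. The rise was 0.46 ± 0.12 (adjusted p = 0.083), and all 3 probe sets kept the call with each array left out. Rpl13 rose by 0.45 ± 0.14 and Rpl36 by 0.42 ± 0.13 (adjusted p = 0.15 and 0.13). In both genes WTCR replicate 1 was the lowest of the 3 restricted livers, at 10.88 beside a highest WTAL value of 10.81 for Rpl13 and at 10.36 beside 10.21 for Rpl36. These calls were less stable. Without WTCR replicate 3 all 9 probe sets of Rpl13 lost the call, at 0.31 to 0.36, and without WTCR replicate 2, 8 of the 9 of Rpl36 did, at 0.33 to 0.37.

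In 4 large-subunit genes only some probe sets passed the rule. Rpl10a passed in 3 of 4, with differences of 0.34 to 0.40. Rpl24, a protein that bridges to the small subunit, passed in 1 of 3, at 0.35 to 0.42, and with the probe sets averaged its difference was 0.37 ± 0.08 (adjusted p = 0.040), just under the fold limit. Rpl7a passed in 1 of 3, at 0.22 to 0.40. Rplp0 passed in 1 of 2, at 0.35 and 0.42.

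Rplp0, Rplp1 and Rplp2 form the stalk of the large subunit, which recruits elongation factors. Rplp0, also widely used as a reference gene, read 11.88, 11.85 and 11.93 in WTAL, 12.18, 12.23 and 12.40 in WTCR and 11.90, 11.72 and 11.67 in Dgat1-/-AL. WTCR was above the other 6 arrays, and the rise over WTAL was 0.38 ± 0.09 (adjusted p = 0.048). Without WTCR replicate 3 the probe set that passed gave 0.36 and was no longer called. Rplp1 read 12.02, 11.94 and 12.04 in WTAL and 11.88, 12.27 and 12.35 in WTCR, which overlapped, with a difference of 0.17 ± 0.13. Rplp2 read 6.47, 6.28 and 6.38 in WTAL and 6.49, 6.89 and 6.78 in WTCR, with a difference of 0.35 ± 0.11 that fell short of the fold limit (adjusted p = 0.14).

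In the small subunit the 1 called probe set was that of Rps15a. It read 8.21, 8.32 and 8.15 in WTAL and 8.43, 8.77 and 8.84 in WTCR. These did not overlap, and the rise was 0.45 ± 0.12 (adjusted p = 0.11), with the call lost without WTCR replicate 3 (0.37). Rps6, the substrate of S6 kinase downstream of mTORC1, read 12.27, 12.25 and 12.26 in WTAL and 12.36, 12.56 and 12.70 in WTCR. The groups did not overlap, but the difference of 0.28 ± 0.09 (adjusted p = 0.17) was under the fold limit.

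At the other end, Rpl22 was the 1 large-subunit gene with a difference below 0. It read 9.33, 8.77 and 9.06 in WTAL and 8.68, 8.93 and 8.67 in WTCR, which overlapped (-0.30 ± 0.18, adjusted p = 0.54). The 2 probe sets that fell are not standard ribosomal proteins. Rpl7l1, a paralog of Rpl7, read 9.18, 9.30 and 9.17 in WTAL and 8.77, 8.85 and 8.80 in WTCR, with no overlap (-0.41 ± 0.11, adjusted p = 0.090). That call was lost without the array labelled WTAL replicate 2 (-0.37). Rps23rg1, a retroposed gene derived from Rps23, read 6.89, 6.59 and 7.10 in WTAL and 6.74, 6.21 and 6.16 in WTCR, which overlapped (-0.49 ± 0.18, adjusted p = 0.22). Its call was lost without WTAL replicate 1 (-0.48) or 3 (-0.37) and without WTCR replicate 2 (-0.41) or 3 (-0.39).

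**Figure D2:**
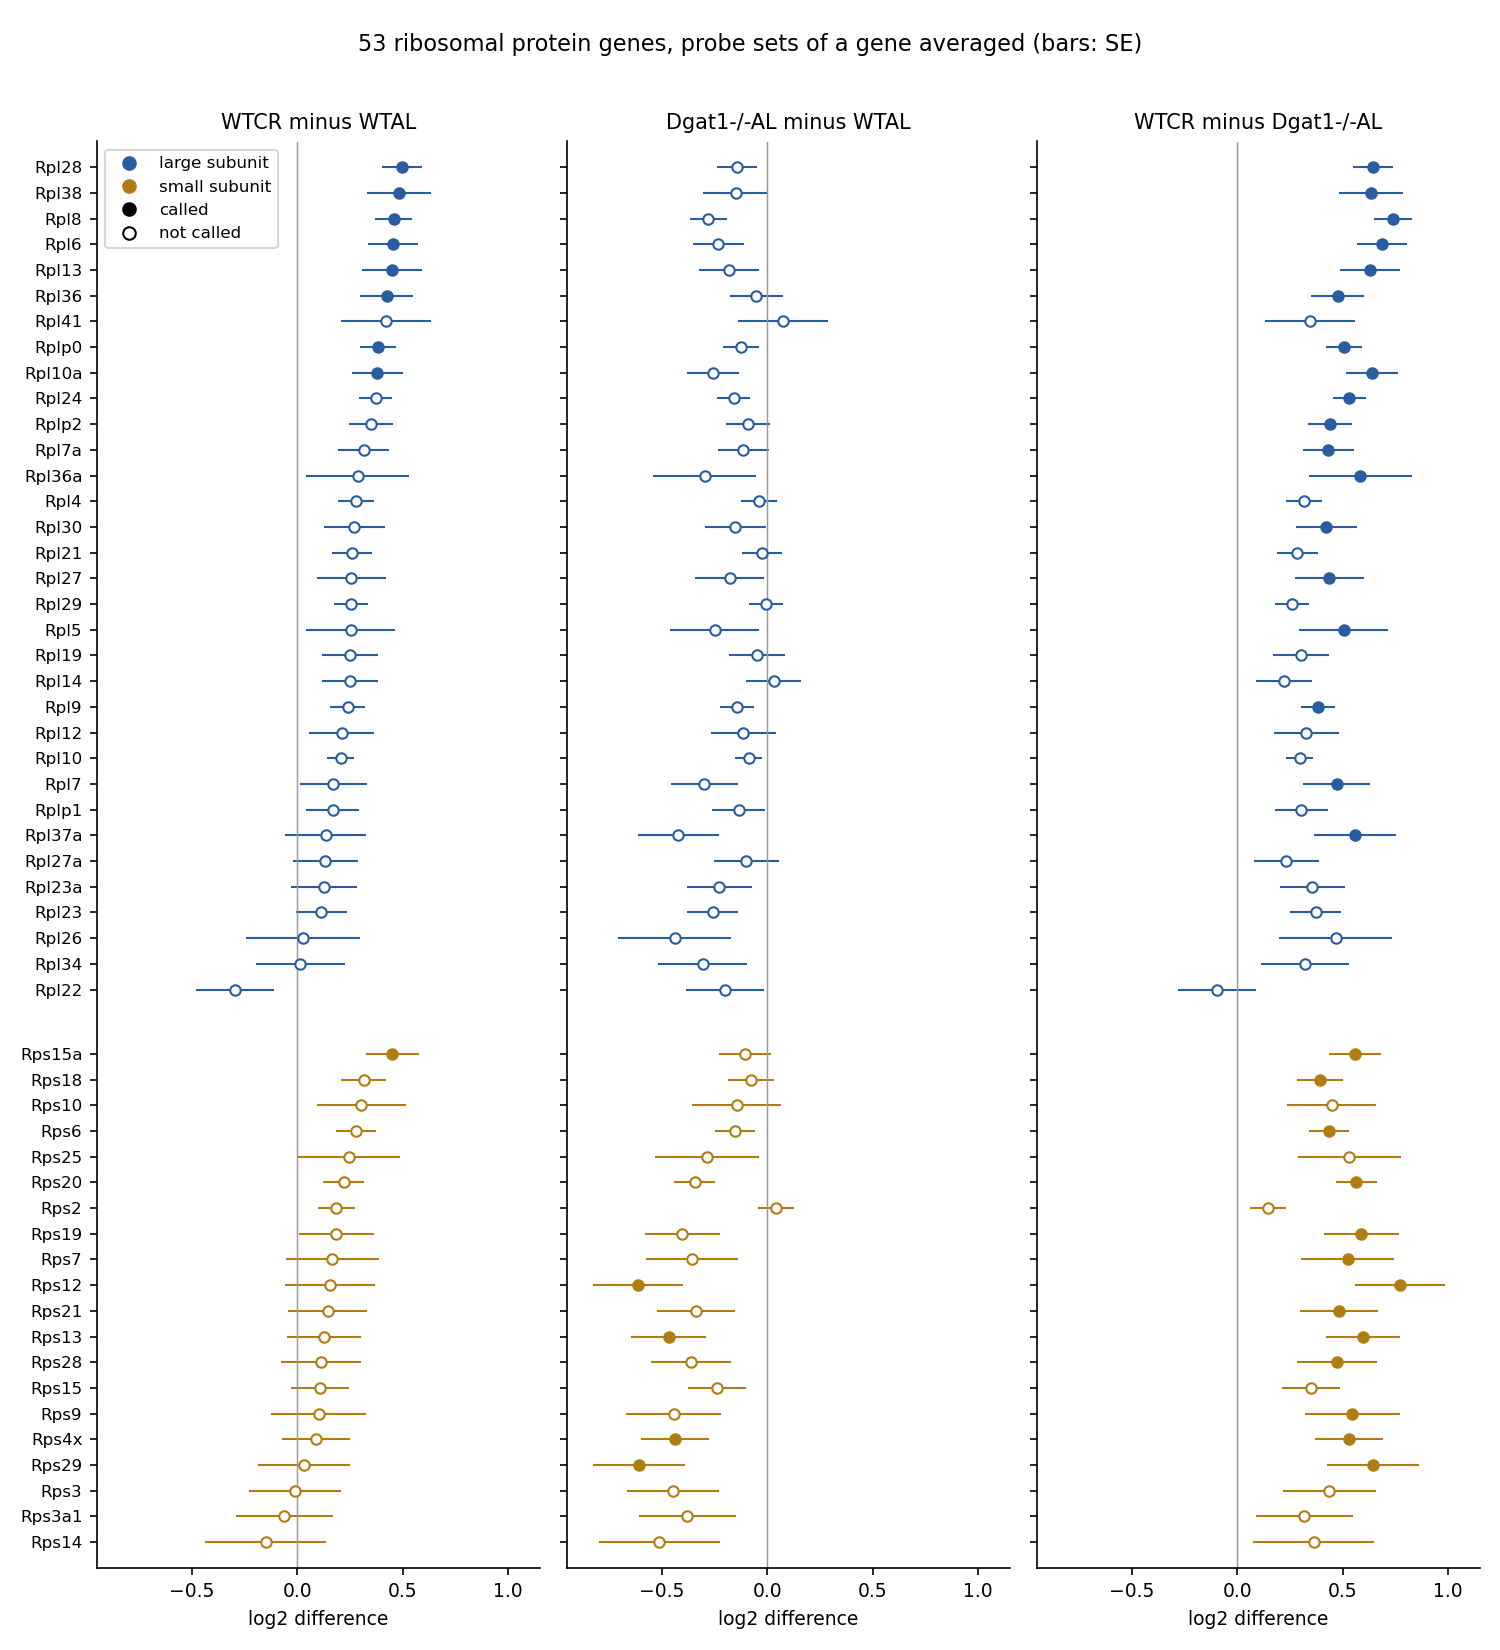
Difference of group means on the log2 scale (x axis) with its SE for the 53 standard ribosomal protein genes (y axis, ordered within each subunit by the WTCR difference), for the 3 comparisons. Filled points passed the rule: 8 large-subunit genes and 1 small-subunit gene in WTCR against WTAL, 4 small-subunit genes in Dgat1-/-AL against WTAL, and 18 and 13 between WTCR and Dgat1-/-AL.

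In Dgat1-/-AL livers the calls fell in the other subunit and ran the other way. Against WTAL, 23 of 215 probe sets were lower (10.7%, where 0.76% of all probe sets were) and 0 were higher (0.465% of all were). In limma, 0 members were higher even at an unadjusted p under 0.05 with no fold limit (1.95% of all were), and 29 were lower (2.62% of all were). All 23 belonged to the small subunit, 28.8% of its 80 probe sets, and to 4 genes: Rps12 (13 of 13), Rps29 (4 of 4), Rps13 (3 of 3) and Rps4x (3 of 5). By gene this was 4 of 20 small-subunit and 0 of 33 large-subunit genes, where 0.627% of all genes fell. Leaving out the array labelled WTAL replicate 2 gave 7 small-subunit genes, where 0.978% of all genes fell. The count was 0 without WTAL replicate 1 and 1 without WTAL replicate 3 or Dgat1-/-AL replicate 1. It was 7 without WTCR replicate 1, an array that enters this comparison only through the spread. Of all genes 0.868%, 0.587%, 0.958% and 0.657% fell without WTAL replicate 1, WTAL replicate 3, Dgat1-/-AL replicate 1 and WTCR replicate 1. The median difference was -0.34 for the small and -0.15 for the large subunit, against -0.00 for all probe sets, and 203 of the 215 members were below 0, where 50.8% of all probe sets were. Every Dgat1-/-AL array lay below every WTAL array for 45 members (20.9%), 36 of the small and 9 of the large subunit, where 3.86% of all probe sets did so. The number was 87 with the array labelled WTAL replicate 2 left out, where 8.15% of all did so. Among the brightest 2882, 1.98% of probe sets were lower and the median was 0.01.

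None of these calls survived adjustment: limma's adjusted p was 0.97 for each of the 23, and 0 probe sets on the array reached 0.05. The count also depended on single arrays. It was 0 without WTAL replicate 1 and 5 without WTAL replicate 3. It was 13 without Dgat1-/-AL replicate 1 or without Dgat1-/-AL replicate 3. Without the array labelled WTAL replicate 2 it rose to 41, of which 32 were of the small and 9 of the large subunit. In these fits 0.677% to 1.28% of all probe sets were lower. The small-subunit median was -0.16 without Dgat1-/-AL replicate 1 and -0.22 without WTAL replicate 1. It was -0.43 without the array labelled WTAL replicate 2, -0.43 without Dgat1-/-AL replicate 3 and -0.41 without Dgat1-/-AL replicate 2. The large-subunit median was -0.09 without Dgat1-/-AL replicate 1 and -0.17 without the array labelled WTAL replicate 2. The WTAL arrays are shared by this comparison and the one with WTCR, so the differences of a gene in the 2 comparisons are not independent.

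Rps12, a protein of the beak of the small subunit, gave 13 of the 23 calls, and its probe sets are largely repeats of a measurement. It read 11.43, 10.76 and 11.26 in WTAL, 10.89, 11.58 and 11.44 in WTCR and 10.49, 10.73 and 10.39 in Dgat1-/-AL. The Dgat1-/-AL arrays were the lowest, but the array labelled WTAL replicate 2 stood only just above them. The difference from WTAL was -0.62 ± 0.21 (a 1.53-fold fall, adjusted p = 0.98), and in WTCR it was 0.16 ± 0.21. Its 5 strongest probe sets lost the call without WTAL replicate 1 (-0.49 to -0.50), WTAL replicate 3 (-0.57 to -0.58) or Dgat1-/-AL replicate 3 (-0.56 to -0.57).

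Rps29, a small zinc-binding protein of the small subunit, read 10.73, 10.15 and 10.28 in WTAL and 9.51, 9.9985 and 9.81 in Dgat1-/-AL. The groups did not overlap, while the WTCR arrays (10.0035, 10.75 and 10.50) spanned the WTAL range. The difference was -0.61 ± 0.22 in Dgat1-/-AL and 0.03 ± 0.22 in WTCR (adjusted p = 0.98 and 0.97), and its strongest probe set lost the call without WTAL replicate 1 (-0.47).

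Rps13 read 9.31, 9.02 and 9.23 in WTAL and 8.44, 8.78 and 8.94 in Dgat1-/-AL. These did not overlap, and the fall was -0.47 ± 0.18 (adjusted p = 0.98). Rps4x, the X-linked form of Rps4, read 11.12, 10.73 and 11.16 in WTAL and 10.45, 10.60 and 10.65 in Dgat1-/-AL, with no overlap. Its 5 probe sets differed by -0.34 to -0.53, on both sides of the fold limit. Without Dgat1-/-AL replicate 1 or WTAL replicate 1 all 3 called probe sets of Rps13 and of Rps4x lost the call, at -0.29 to -0.44 for Rps13 and -0.41 to -0.46 for Rps4x.

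Other small-subunit genes had differences of like size without passing the rule. Rps14, of the platform, read 12.38, 11.81 and 12.01 in WTAL and 10.90, 11.81 and 11.95 in Dgat1-/-AL, a difference of -0.51 ± 0.29 that rested on replicate 1. Rps20, with 1 probe set, read 10.67, 10.45 and 10.70 in WTAL and 10.25, 10.32 and 10.21 in Dgat1-/-AL. It did not overlap, and its difference of -0.34 ± 0.10 was under the fold limit (adjusted p = 0.97). Rps6 differed by -0.16 ± 0.09 and Rps15a by -0.11 ± 0.12. Rps2, at 0.04 ± 0.09, was the 1 small-subunit gene above 0.

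**Figure D3:**
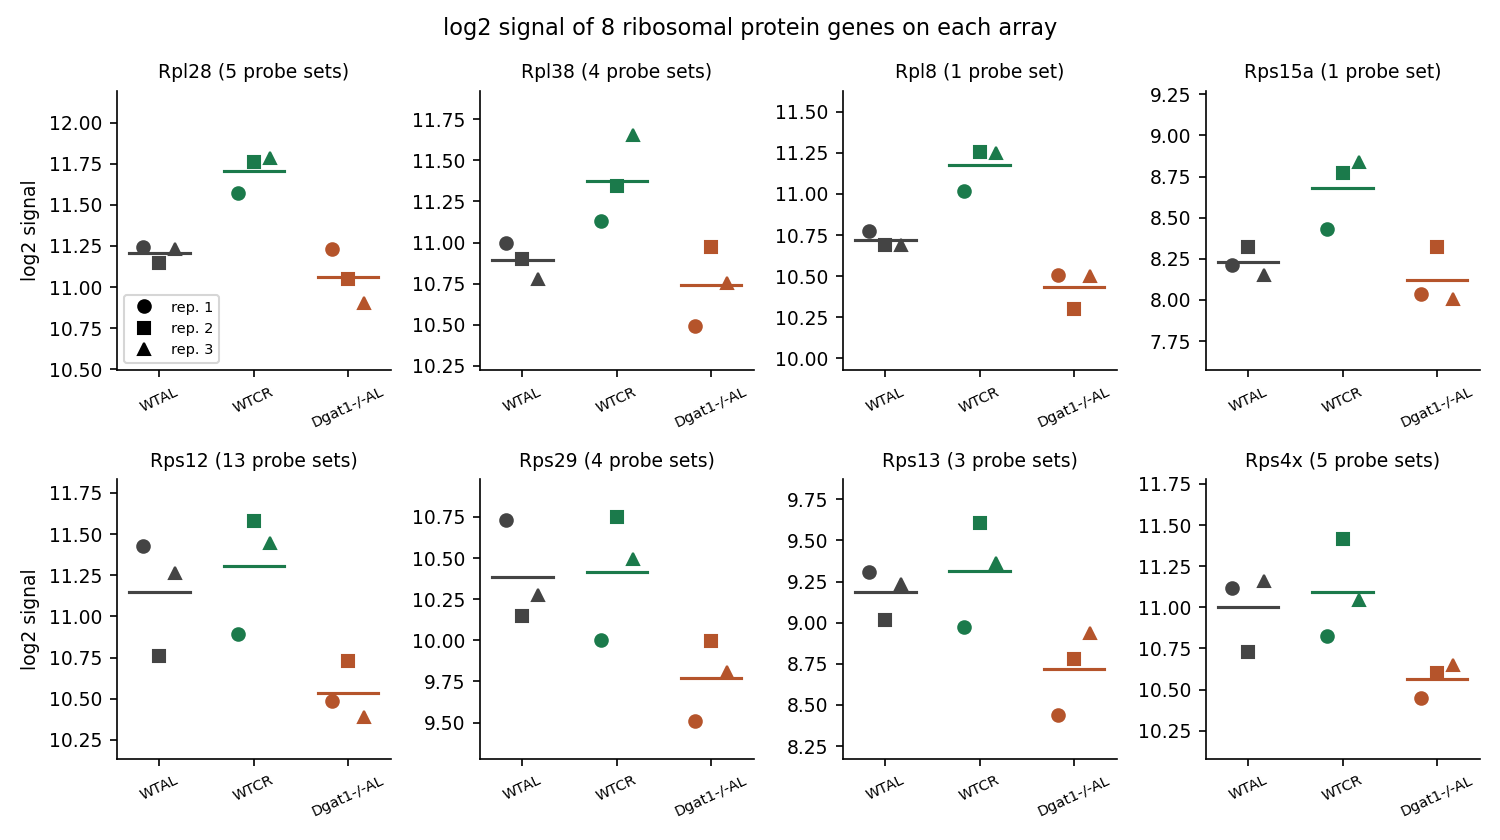
Log2 signal (y axis, the same span of 1.7 in each panel) of 4 genes that rose in WTCR (top row) and 4 that fell in Dgat1-/-AL (bottom row) on each array by group (x axis), averaged over the probe sets of a gene, with group means as lines. In the top row the 3 WTCR arrays lie above all WTAL arrays, and in the bottom row the 3 Dgat1-/-AL arrays lie below all WTAL arrays, with WTCR replicate 1 the lowest WTCR array in each panel.

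Compared directly, WTCR livers exceeded Dgat1-/-AL livers over most of the ribosome. Of 215 probe sets, 121 were higher in WTCR (56.3%, where 4.66% of all probe sets were) and 1, that of Rps23rg1, was lower (0.465%, where 3.93% of all were). The 121 covered 35 symbols, with 69 probe sets of the large (51.9%) and 52 of the small subunit (65.0%). The median difference was 0.40 for the large and 0.49 for the small subunit, against 0.01 for all probe sets and 0.12 for the brightest 2882, where 16.9% were higher. In 117 members (54.4%) the arrays of the 2 groups did not overlap, where 9.05% of all probe sets were higher without overlap. By gene, 18 of 33 large-subunit and 13 of 20 small-subunit genes were higher, against 4.06% of all genes. The gene counts were lowest, at 9 and 7, without WTCR replicate 2 and 11 and 7 without Dgat1-/-AL replicate 1, where 4.29% and 5.6% of all genes were higher. By probe set the count was 165 without WTCR replicate 1 and 76 to 138 with any other array left out, with the lowest values of 76 without WTCR replicate 2 and 77 without Dgat1-/-AL replicate 1. Without the array labelled WTAL replicate 2 it was 117, where 4.46% of all probe sets were higher. The shares were 5.15%, 4.4% and 5.76% without WTCR replicate 1, WTCR replicate 2 and Dgat1-/-AL replicate 1.

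After adjustment, a limma p under 0.05 was reached by 37 members, 31 of the large and 6 of the small subunit, where 1.77% of all probe sets reached it in this direction, and by 0 in the other (1.29% of all). The 37 were 5 probe sets each of Rpl10, Rpl28 and Rps6, 4 each of Rpl10a and Rpl9, 3 each of Rpl13, Rpl24 and Rpl6, 2 of Rplp0 and 1 each of Rpl8, Rps20 and the Rpl32 paralog Rpl32l. At an unadjusted p under 0.05 with no fold limit, 2 were lower (6.87% of all). Among the genes Rpl8 had the lowest p, with a difference of 0.74 ± 0.09 (adjusted p = 0.0082). Rpl24 differed by 0.53 ± 0.08 and Rpl28 by 0.64 ± 0.10 (adjusted p = 0.013 for each), and Rplp0 by 0.51 ± 0.09 and Rpl6 by 0.69 ± 0.12 (adjusted p = 0.020 and 0.021). The 6 largest differences all belonged to Rps12 probe sets, at up to 0.78, and the gene mean differed by 0.77 ± 0.21 (adjusted p = 0.096). Rps6 differed by 0.43 ± 0.09 and Rps20 by 0.56 ± 0.10 (adjusted p = 0.046 and 0.022). Rpl10, at 12.90 to 12.97 in WTAL, 13.08 to 13.21 in WTCR and 12.79 to 12.89 in Dgat1-/-AL, separated all 3 groups but differed by only 0.30 ± 0.06, under the fold limit.

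Some genes passed here in part of their probe sets. Of the large subunit these were Rpl27 (3 of 4), Rpl5 (3 of 5), Rpl9 (4 of 8), Rpl23a (5 of 13) and Rpl23 (1 of 2). Of the small subunit they were Rps6 (7 of 8), Rps18 (6 of 7), Rps28 (5 of 7), Rps7 (2 of 3), Rps9 (1 of 2) and Rps15 (1 of 3). Rps4x, short of the rule in part of its probe sets against WTAL, was higher in WTCR by 0.53 ± 0.16. Rpl22 again was the 1 standard gene below 0, at -0.10 ± 0.18.

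**Figure D4:**
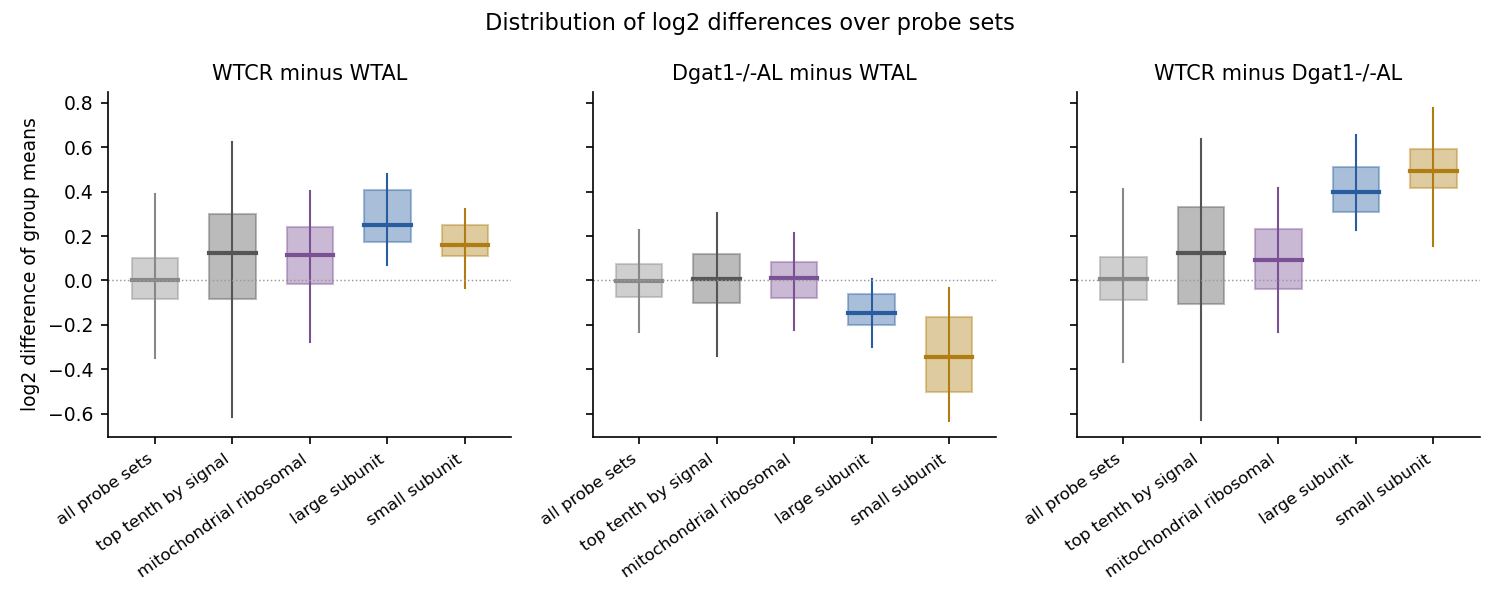
Log2 difference of group means (y axis) over probe sets in 5 sets (x axis) for the 3 comparisons. Lines run from the 5th to the 95th percentile, boxes over the middle part between the quartiles, and bars mark the median, which for the large and small subunit is 0.25 and 0.16 in WTCR against WTAL, -0.15 and -0.34 in Dgat1-/-AL against WTAL and 0.40 and 0.49 between WTCR and Dgat1-/-AL.

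WTCR replicate 1 and Dgat1-/-AL replicate 1 had the lowest small-subunit medians of their groups. Both were picked by values of the members themselves. Leaving out the lowest array of a group raises that group's small-subunit level by construction, so the counts give no independent support. With both left out, a setting chosen after seeing the data, 71 members were higher in WTCR than in WTAL, 54 of the large and 17 of the small subunit, where 5.03% of all probe sets were. In Dgat1-/-AL 20 were lower, 1 of the large and 19 of the small subunit, where 1.12% of all were. In the direct comparison 142 were higher in WTCR and 2 lower, where 5.86% and 5.13% of all were.

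The paralogs and pseudogenes did not move as a group. Apart from Rpl7l1, Rps23rg1 and Rpl32l, 0 of the 11 symbols passed in any comparison. Rpl32l read 7.83, 7.87 and 7.87 in WTAL, 7.97, 8.17 and 8.24 in WTCR and 7.54, 7.67 and 7.81 in Dgat1-/-AL. The groups were apart, and the WTCR mean lay 0.45 ± 0.09 above that of Dgat1-/-AL (adjusted p = 0.038). The pseudogene Rpl14-ps1 read 6.17 to 6.30 in WTAL and 6.37 to 6.65 in WTCR, a difference of 0.29 ± 0.10 under the fold limit. Rps19-ps3 differed by -0.03 ± 0.19 in WTCR. The stress-induced paralog Rps27l differed by 0.11 ± 0.22 in WTCR and -0.17 ± 0.22 in Dgat1-/-AL, and read lowest in Dgat1-/-AL replicate 1 (9.32). Rpl10l, Rpl39l and Rpl3l, paralogs known from testis or muscle, had differences of 0.24, -0.04 and -0.02 in WTCR at signals of 3.24 to 6.04. Rps4l differed by -0.08 and Rps19bp1, which encodes a binding partner of Rps19, by 0.14.

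A further 239 probe sets that carry several symbols also match the rule through 1 or more of them, and 17 matching symbols occurred only there. Rpl13a, a common reference gene, was among these, on 4 such probe sets. For Rps27a and Rack1 no probe set was found by symbol. The ribosomal proteins Rpsa and Fau, whose names lie outside the rule, had 5 and 2 probe sets. Rpsa, also known as a laminin receptor, was higher in WTCR than in WTAL in 4 of its 5 probe sets, by 0.39 to 0.61, and higher than in Dgat1-/-AL in 5 of 5. Of all probe sets 4.25% and 4.66% were higher in these comparisons, and of the brightest 2882 15% and 16.9%. The probe sets of a gene are not independent measurements. Of these 7 probe sets 1 was called against WTAL with WTAL replicate 3, WTCR replicate 2 or the array labelled WTAL replicate 2 left out, and 2 were without WTCR replicate 3 or Dgat1-/-AL replicate 2. As a small-subunit protein it stands beside Rps15a as called in WTCR, and its strongest probe set read 10.85, 10.74 and 10.78 in WTAL and 11.18, 11.38 and 11.63 in WTCR (adjusted p = 0.029). None of these 7 probe sets was called in Dgat1-/-AL.

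Genes that build ribosomes were called as well. Of 36 probe sets of ribosome assembly factors, 10 were higher in WTCR than in WTAL and 0 lower, with a median of 0.20, where 4.25% and 3.81% of all probe sets were. In Dgat1-/-AL 0 were higher and 3 lower, with a median of -0.07, where 0.465% and 0.76% of all probe sets were. Gnl3, the nucleolar GTPase nucleostemin, read 6.96, 7.41 and 7.54 in WTAL, 7.88, 8.10 and 8.14 in WTCR and 7.04, 7.002 and 7.24 in Dgat1-/-AL, which put WTCR above all other arrays (0.74 ± 0.15, adjusted p = 0.038). Nop56, a core protein of the box C/D particles that methylate ribosomal RNA, rose by 0.50 ± 0.13, the nuclear export adaptor Nmd3 by 0.65 ± 0.22 and nucleolin, Ncl, by 0.49 ± 0.10. The 3 that fell in Dgat1-/-AL were Gtpbp4 (-0.57 ± 0.15), Nop58 (-0.47 ± 0.14) and Rrs1 (-0.41 ± 0.13), with an adjusted p of 0.97 each. In the direct comparison 12 were higher in WTCR and 0 lower, where 4.66% and 3.93% of all probe sets were. Without WTAL replicate 1, 5 were higher in WTCR than in WTAL and 5 lower in Dgat1-/-AL, and leaving out the array labelled WTAL replicate 2 changed neither count.

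Of 25 probe sets of RNA polymerase I and its factors, which transcribe ribosomal RNA, 4 were higher in WTCR (4.25% of all probe sets were), 0 passed in Dgat1-/-AL and 10 were higher in WTCR than in Dgat1-/-AL (4.66% of all were). The 4 became 2 without WTAL replicate 3 and 1 without WTAL replicate 1 or WTCR replicate 3, and the 10 became 6 without Dgat1-/-AL replicate 1. With the array labelled WTAL replicate 2 left out, 2 rose and 1 fell in WTCR and 1 fell in Dgat1-/-AL. Of the 10, 7 were probe sets of the polymerase I factor Taf1d, and 4 of the 7 had the same values on every array. The medians were 0.18, -0.13 and 0.36. Those higher than WTAL included Myc, an activator of ribosome synthesis, which read 5.89, 5.90 and 6.53 in WTAL and 6.96, 6.69 and 6.75 in WTCR, with no overlap (0.69 ± 0.19, adjusted p = 0.10). Rrn3, the initiation factor of polymerase I, rose by 0.38 ± 0.12.

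Of 27 probe sets of initiation factors, 6 rose and 1 fell in WTCR, with a median of 0.18, where 4.25% of all probe sets rose and 3.81% fell, while in Dgat1-/-AL 0 were called. Between WTCR and Dgat1-/-AL 4 were higher and 1 lower, where 4.66% and 3.93% of all were. Without WTCR replicate 3 the 6 became 3, the fall became 2 and the 4 became 1, without WTAL replicate 1 the 6 became 3, without WTAL replicate 3 the fall became 2, and leaving out the array labelled WTAL replicate 2 the 6 became 5. Eif2b2, Eif2b3 and Eif2b1, subunits of the exchange factor eIF2B, rose by 0.59 ± 0.09, 0.47 ± 0.12 and 0.39 ± 0.08, and Eif4a2, a helicase paralog, fell by 0.73 on the log2 scale (adjusted p = 0.043). Of 19 probe sets of elongation factors and other mRNAs with a TOP motif, 3 were higher in WTCR: Eef2 (0.44 ± 0.18), Npm1 (0.41 ± 0.09) and Eif3f (0.56 ± 0.18), where 4.25% of all probe sets and 15% of the brightest 2882 were. That count was 1 without the array labelled WTAL replicate 2 and 0 without WTAL replicate 1. In Dgat1-/-AL 0 passed, and 1 was lower without WTAL replicate 3, any 1 of the Dgat1-/-AL arrays or the array labelled WTAL replicate 2. Between WTCR and Dgat1-/-AL 2 were higher, where 4.66% of all were, and 1 was without WTCR replicate 2. The median of that list was 0.05 in WTCR and -0.07 in Dgat1-/-AL, against 0.12 and 0.01 for the brightest 2882. Its probe sets had mean signals from 6.23 to 13.8, so not all of them were among the brightest 2882.

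Of 26 probe sets of mTORC1, its regulators and effectors, 4 were higher and 1 lower in WTCR, with a median of 0.07, where 4.25% and 3.81% of all probe sets were. In Dgat1-/-AL 1 was higher and 0 lower, where 0.465% and 0.76% of all were, and 3 were higher without Dgat1-/-AL replicate 2. Between WTCR and Dgat1-/-AL 2 were higher and 2 lower, where 4.66% and 3.93% of all were. The latter 2, Rptor and Sesn3, became 1 without any 1 of 6 of the arrays, among them the array labelled WTAL replicate 2. Rragc, a GTPase that brings mTORC1 to the lysosome, rose by 0.61 ± 0.09 (adjusted p = 0.016), and Lamtor1, its anchor, rose in 2 probe sets by 0.48 ± 0.10 and 0.39 ± 0.11. Sesn3, a sestrin that restrains mTORC1, moved in opposite directions. It read 7.72, 7.63 and 7.80 in WTAL, 7.21, 7.05 and 6.88 in WTCR and 8.37, 8.09 and 8.17 in Dgat1-/-AL. All 3 groups were apart, with -0.67 ± 0.10 in WTCR, 0.49 ± 0.10 in Dgat1-/-AL and -1.16 ± 0.10 between WTCR and Dgat1-/-AL (adjusted p = 0.018, 0.96 and 0.0034). Of the 6 S6 kinase probe sets that the rule left out, with mean signals from 3.13 to 7.55, 0 were called in any comparison with all arrays. Without WTCR replicate 2, WTCR replicate 3 or Dgat1-/-AL replicate 1, 1 was higher in WTCR than in Dgat1-/-AL. In these fits 4.07% to 5.76% of all probe sets were. Of 85 probe sets of mitochondrial ribosomal proteins, 3 were higher and 1 lower in WTCR and 0 and 2 in Dgat1-/-AL, and the median differences were 0.12 and 0.01. Of all probe sets 4.25% and 3.81% were higher and lower in WTCR, and 0.465% and 0.76% in Dgat1-/-AL. With each array left out in turn these counts were 2 to 7, 0 to 3, 0 and 0 to 3, and leaving out the array labelled WTAL replicate 2 they were 2, 3, 0 and 3. Between WTCR and Dgat1-/-AL 6 were higher and 1 lower, where 4.66% and 3.93% of all were.

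Markers of other liver cells moved in the same arrays. For these counts, 4.25% of all probe sets were higher and 3.81% lower in WTCR than in WTAL, 0.465% and 0.76% in Dgat1-/-AL than in WTAL, and 4.66% and 3.93% in WTCR than in Dgat1-/-AL. In the B and plasma cell list, 4 of 6 genes fell in WTCR and 1 of 6 in Dgat1-/-AL, and between WTCR and Dgat1-/-AL 0 were called with all arrays and 3 were lower without Dgat1-/-AL replicate 1. Their summed signal on the log2 scale was 7.98 to 8.78 in WTAL, 7.34 to 7.42 in WTCR and 7.45 to 7.80 in Dgat1-/-AL. The mean signals of these genes were low, from 3.77 to 5.83, against a median of 5.83 for all probe sets. Of 10 Kupffer cell and macrophage markers, 3 fell in WTCR and 4 fell in Dgat1-/-AL, with sums of 12.0 to 12.6, 11.6 to 12.3 and 11.7 to 12.2. Both counts were 2 with the array labelled WTAL replicate 2 left out, and 6 and 7 without WTAL replicate 1. In the direct comparison 1, Csf1r, was lower in WTCR.

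Sinusoidal endothelium markers differed in the direct comparison, the one with the most ribosomal protein calls. Of 8 probe sets, 5 read lower in WTCR than in Dgat1-/-AL (3 with an adjusted p under 0.05) and 1 was higher, with a median of -0.55. The 5 were those of the scavenger receptors Stab1 and Stab2, the VEGF receptor Kdr, the endothelial cadherin Cdh5 and 1 of the 2 of Clec4g, and the 1 was that of Lyve1, which binds hyaluronan. Against WTAL, 1 was lower in WTCR, and 3 were higher and 2 lower in Dgat1-/-AL. The sums were 11.85 to 12.04 in WTAL, 10.997 to 11.44 in WTCR and 11.54 to 11.85 in Dgat1-/-AL. Without WTCR replicate 1, 4 were lower in WTCR than in WTAL, and 4 to 5 were lower than in Dgat1-/-AL with any array left out.

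Of 7 T and NK cell markers 2 fell in WTCR, as did 2 of 6 stellate cell markers, and 0 of either list passed in Dgat1-/-AL, apart from 1 T and NK cell marker that was lower there with the array labelled WTAL replicate 2 left out. Between WTCR and Dgat1-/-AL 2 T and NK cell markers were lower in WTCR, and 2 stellate cell markers were lower and 1 higher. Markers of bile duct cells (4), neutrophils (4) and red cells (1) were not called in any comparison with all arrays. Mean signals were 4.21 to 6.18 for T and NK cell, 5.21 to 6.04 for bile duct cell and 3.84 to 5.66 for neutrophil markers. Probe sets this dim can show little change, so the absence of calls among them says little. The part of the marker shifts in the ribosomal protein differences was not tested.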

How the data were processed

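Total RNA of 9 livers was hybridised to Affymetrix Mouse Gene 1.0 ST arrays. The authors made the deposited log2 signals with RMA, which corrects background, quantile-normalizes arrays and summarizes probes; the RMA version is not given in the sources used here. Quantile normalization fixes each array's distribution, so differences are relative to all other probe sets. Gene symbols came from the platform annotation: 21780 probe sets carried 1 symbol, 1605 several and 5430 none. Here limma 3.58.1 in R 4.3.3 (lmFit, eBayes) fitted 1 mean per group over all 9 arrays and 28815 probe sets, with no filter, and the code was tested on simulated data. Replicates are separate mice, and their number limits the precision. Members, gene lists and tests were chosen with earlier results of these data known. The genes named were the called members (the 6 largest in each direction where over 12), the paralogs and pseudogenes, stalk proteins, Rps6, Rpl13a, Rps27a, members called in only some probe sets, and the brightest and dimmest. Rpl8, Rps15a, Rpl6, Rpl13, Rpl36, Rps13, Rpl22, Rps20, Rps14 and Rps2, and the genes named from the other lists, were chosen after their values were seen. Titles give each group replicates 1 to 3. Deviations of same-numbered arrays correlated at 0.48, 0.25 and 0.21 between WTCR and Dgat1-/-AL, which pairs them under the rule used (over 0.1 in every pair). Unlike-numbered arrays of these groups correlated at 0.18 and 0.18 between replicates 2 and 3, and at -0.37 to -0.27 where replicate 1 was involved. The values therefore do not establish a pairing by number. Same-numbered arrays correlated at -0.23, 0.05 and -0.07 between WTCR and WTAL and -0.32, -0.09 and -0.23 between Dgat1-/-AL and WTAL. Alternatives were re-centring, a trend in the spread, only the groups compared, array weights, the replicate block, a signal filter, each array left out, other member rules, averaging by symbol and other thresholds.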

Additional observations from a re-analysis of the deposited data

How the results depend on the processing

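With each array left out in turn, members higher in WTCR than in WTAL numbered 18 to 58 (38 with all arrays), those lower 1 to 2, those lower in Dgat1-/-AL than in WTAL 0 to 41 (23), those higher in WTCR than in Dgat1-/-AL 76 to 165 (121), and those lower 0 to 1. With WTCR replicate 1 and Dgat1-/-AL replicate 1 both left out, chosen after seeing the data, 71 were higher in WTCR than in WTAL, and between WTCR and Dgat1-/-AL 2 were lower. These 2 arrays were picked by values of the members themselves, so the rise to 71 follows in part from that choice. At an adjusted p under 0.05 the counts were 9 higher and 0 lower in WTCR, 0 lower in Dgat1-/-AL, and 37 higher and 0 lower between WTCR and Dgat1-/-AL. At an unadjusted p under 0.05 with no fold limit, 86 were higher in WTCR, and 2 were lower between WTCR and Dgat1-/-AL, as with array weights (2), which also put the small-subunit median in Dgat1-/-AL at -0.20 (-0.34 without weights). With standard symbols only, 0 were lower in WTCR against either group, and with probe sets of several symbols also taken, 77 were higher against WTAL and 218 against Dgat1-/-AL. Averaging the probe sets of a symbol left 9 symbols higher in WTCR, 4 lower in Dgat1-/-AL and 32 higher in WTCR than in Dgat1-/-AL. These are counts of symbols and not of probe sets. Without averaging, symbols with a called probe set numbered 11, 4 and 35. With the replicate number as a block the counts were 38 (37 large, 1 small) higher in WTCR, 23 lower in Dgat1-/-AL and 112 (63 and 49) higher between WTCR and Dgat1-/-AL, so none moved by over 1.5 times. Counts of genes and of members without overlap were recomputed with each array left out, a step added after seeing the data. The other lists were those of cell markers, ribosome assembly, RNA polymerase I, initiation and elongation factors, mTORC1, S6 kinases, mitochondrial ribosomal proteins and ribosomal proteins outside the rule. Of their 1836 recomputed counts, 180 moved by over 1.5 times or to or from 0. Of the 180, 84 were among the 918 with 1 array left out, and 49 of the 84 moved by a single probe set. Of the other 92 recomputed member counts, each stayed within 1.5 times, 0 of the 114 recomputed subunit medians changed sign, and 0 of the 125 calls of named probe sets changed direction, although only 38 of the 125 were kept with every array left out. The cause of the changes was not tested, apart from those that follow from counting symbols or from fewer arrays. Probe sets near background, such as Rpl39l and Rpl3l, can show little change in either direction, and that of Rpl12 also read below the median of all probe sets.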
